A study of Mus musculus with 4 samples.

Results

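Unmethylated CpG island cores were examined in whole-genome bisulfite data of mouse embryonic stem cells with an induced deletion of Ogt and of their controls. A core was a 1 kb window of an autosome or of X with at least 40 CpG positions listed in any library, at least 10 reads over its CpGs in each library, and a mean methylation level under 10% over the 4 libraries. Windows that lay in a run of 5 or more adjacent windows under 15% (broad valleys) were not included. The rule found 15347 windows among 2506151 windows with a listed CpG and among 20623 windows with at least 40 CpGs. Of the other CpG-dense windows with enough reads, 1188 lay in broad valleys and 3988 were more methylated. The windows were chosen by their CpG number, read number and low methylation in these same libraries, so their low level is a description. The rule used the mean over both groups and not their difference, but its limit of 10% caps a gain or a loss at about 20 percentage points.

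CpG islands are stretches of CpG-rich DNA that mark most promoters of housekeeping genes and many promoters of developmental genes. They stay largely free of 5-methylcytosine because CXXC-domain proteins and H3K4 methylation keep the DNA methyltransferases from acting on them. TET dioxygenases oxidise 5-methylcytosine that is present. OGT modifies proteins of the nucleus and cytosol with a single sugar, O-linked N-acetylglucosamine, and TET proteins are among its stable partners. Islands away from annotated gene ends are called orphan islands, and some of them are known to act as starts of transcription or as enhancers.

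The study compared 2 Ogt iKO samples with 2 control samples. All 4 carried the floxed Ogt fl/fl genotype and were grown on mitomycin-treated feeder fibroblasts in a medium with LIF and serum replacement. The iKO cells had been kept in 4-OHT, the drug that switches on the inducible Cre, for 6 days, and their YFP-positive cells were sorted. Control cells were cultured without 4-OHT, and feeders were removed from the samples by cell sorting. The drug, the YFP sort and the loss of Ogt therefore cannot be told apart here, and the deletion itself was not checked. Bisulfite reads 5-methylcytosine and 5-hydroxymethylcytosine alike. Nothing states that the samples of a group came from separate cultures, so p-values between libraries measure only the spread between these samples. P-values of single windows rest mainly on a spread shared over all windows tested and little on the window's own.

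Promoters of 8 genes that start inside such windows are printed, and those of Tmem185b, Tmeff1, Rundc3b and Pcsk6 reach past the edge of the window. Each is the RefSeq promoter of GRCm38.p6, from 250 bases before to 50 bases after the start of transcription, 5′ to 3′ on the strand of the gene, with every CpG in capitals. They are shown because of the windows they lie in. Ltk and Stat5b lay in windows called higher in Ogt iKO cells. Sptlc1, Tmem185b, Tmeff1, Rundc3b and Pcsk6 lay in windows called lower. Med13l lay in the window with the most summed reads among those without any methylated read. Ltk, a receptor tyrosine kinase related to ALK, is read at chr2:119758476-119758775 on the minus strand. Stat5b, a transcription factor of cytokine signalling, is read at chr11:100850532-100850831 on the minus strand. Sptlc1, a subunit of the enzyme that starts sphingolipid synthesis, is read at chr13:53377312-53377611 on the minus strand. Tmem185b, a membrane protein, is read at chr1:119525904-119526203 on the plus strand, and Tmeff1, a membrane protein with follistatin-like modules, at chr4:48584924-48585223 on the plus strand. Rundc3b, a RUN-domain protein, is read at chr5:8622903-8623202 on the minus strand. Pcsk6, a convertase that cleaves TGF-beta family precursors, is read at chr7:65861886-65862185 on the plus strand, and Med13l, a subunit of the Mediator kinase module, at chr5:118560469-118560768 on the plus strand.
Ltk: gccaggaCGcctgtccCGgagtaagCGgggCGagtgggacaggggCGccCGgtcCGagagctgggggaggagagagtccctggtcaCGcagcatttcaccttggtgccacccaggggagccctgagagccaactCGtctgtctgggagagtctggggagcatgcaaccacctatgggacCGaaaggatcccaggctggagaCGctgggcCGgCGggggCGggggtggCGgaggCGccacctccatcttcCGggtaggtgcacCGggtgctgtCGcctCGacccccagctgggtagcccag
Stat5b: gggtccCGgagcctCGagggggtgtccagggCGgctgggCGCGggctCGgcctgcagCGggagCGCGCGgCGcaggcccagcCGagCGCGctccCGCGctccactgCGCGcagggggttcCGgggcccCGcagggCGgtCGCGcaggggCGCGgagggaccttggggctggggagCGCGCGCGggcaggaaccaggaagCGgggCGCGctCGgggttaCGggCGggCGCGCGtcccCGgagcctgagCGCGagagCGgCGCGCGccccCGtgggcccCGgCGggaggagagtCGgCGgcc
Sptlc1: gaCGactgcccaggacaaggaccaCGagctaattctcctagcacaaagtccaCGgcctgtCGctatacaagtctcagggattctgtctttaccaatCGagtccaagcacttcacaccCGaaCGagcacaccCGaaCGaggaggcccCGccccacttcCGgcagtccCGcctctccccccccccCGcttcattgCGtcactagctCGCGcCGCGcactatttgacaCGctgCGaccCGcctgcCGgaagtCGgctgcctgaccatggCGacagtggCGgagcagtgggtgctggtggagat
Tmem185b: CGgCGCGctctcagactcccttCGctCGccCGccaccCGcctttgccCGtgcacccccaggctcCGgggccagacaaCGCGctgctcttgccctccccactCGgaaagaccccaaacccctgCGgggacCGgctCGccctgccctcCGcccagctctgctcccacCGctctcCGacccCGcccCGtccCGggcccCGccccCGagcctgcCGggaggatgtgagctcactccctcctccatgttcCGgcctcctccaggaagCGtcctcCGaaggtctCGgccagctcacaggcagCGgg
Tmeff1: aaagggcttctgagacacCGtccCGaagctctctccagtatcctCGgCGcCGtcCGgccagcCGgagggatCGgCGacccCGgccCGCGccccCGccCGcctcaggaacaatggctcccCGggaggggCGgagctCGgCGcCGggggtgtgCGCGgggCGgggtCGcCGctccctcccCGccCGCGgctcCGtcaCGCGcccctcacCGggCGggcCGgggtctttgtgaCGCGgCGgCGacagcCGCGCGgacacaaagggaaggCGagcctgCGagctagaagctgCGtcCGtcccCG
Rundc3b: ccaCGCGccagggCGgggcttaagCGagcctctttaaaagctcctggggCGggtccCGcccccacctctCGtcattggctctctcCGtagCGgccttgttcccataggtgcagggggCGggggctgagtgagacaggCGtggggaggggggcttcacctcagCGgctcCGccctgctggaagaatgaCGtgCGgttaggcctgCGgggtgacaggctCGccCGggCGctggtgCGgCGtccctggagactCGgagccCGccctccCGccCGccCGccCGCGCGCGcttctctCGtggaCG
Pcsk6: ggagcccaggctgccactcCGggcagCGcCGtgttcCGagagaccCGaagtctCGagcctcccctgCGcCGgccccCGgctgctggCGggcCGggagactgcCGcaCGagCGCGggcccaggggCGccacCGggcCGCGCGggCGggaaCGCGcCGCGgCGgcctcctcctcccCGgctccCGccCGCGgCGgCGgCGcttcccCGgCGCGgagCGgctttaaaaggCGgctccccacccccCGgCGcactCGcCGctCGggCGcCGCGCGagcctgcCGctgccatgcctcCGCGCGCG
Med13l: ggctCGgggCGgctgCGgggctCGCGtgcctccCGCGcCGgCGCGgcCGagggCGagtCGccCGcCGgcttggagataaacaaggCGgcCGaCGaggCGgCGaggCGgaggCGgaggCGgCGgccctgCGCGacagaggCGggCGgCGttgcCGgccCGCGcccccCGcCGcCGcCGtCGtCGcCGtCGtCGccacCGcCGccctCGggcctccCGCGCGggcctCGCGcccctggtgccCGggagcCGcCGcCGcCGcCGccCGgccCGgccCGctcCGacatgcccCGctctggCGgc

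The number of CpGs in these 300 bases ran from 20 in Ltk to 61 in Med13l, with 50 in Stat5b and 52 in Pcsk6. Of all 32585 RefSeq promoters matched by position 10094 lay in island cores. They held a median of 25 CpGs and 65% G or C, against 4 CpGs and 49% in the other promoters. CpG number was part of the rule, so this contrast was fixed by it. Of motifs searched on both strands, GGGCGG, the GC box bound by Sp1-family factors, stood in 74.7% of island promoters and in 35.9% of all promoters. The letters CCGGAAGT, read by ETS factors, stood in 8.70% against 3.92%, and TGACGTCA, the cAMP response element, in 3.50% against 1.80%. The palindrome of NRF1 stood in 2.28% of island promoters and 0.973% of all, and CACGTG, the E box, in 10.7% and 7.20%. TATAAA was the rarer one, with 4.95% of island promoters against 13.7% of all, and CCAAT stood at 35.2% and 37.6%. All of these letters except TATAAA and CCAAT hold a CpG.

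The cores held 1057420 listed CpGs, with a median of 63 and at most 177 in a window. Reads summed over the CpGs of a window ran from 10 to 727 per library, with a median of 142. The libraries held 79929994 and 70974957 reads over listed CpGs in iKO, and 68488024 and 64273609 in control, a mean of 3.35 to 4.04 per listed CpG. Neighbouring CpGs share sequenced fragments, so reads of a window are not independent molecules, and intervals and limits cover counting error only. The CpGs of mitochondrial DNA, used as a measure of incomplete conversion, read 0.307% and 0.263% in iKO and 0.264% and 0.253% in control.

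Residual methylation of the cores was low in every library and lower in Ogt iKO cells. The pooled level, methylated reads over all reads, was 1.87% and 1.79% in iKO and 2.27% and 2.19% in control. The iKO values did not overlap with the control values. The difference was -0.402 percentage points (pooled SD 0.059, n = 2 per group), a change of -18% relative to control, with p = 0.33 by an exact two-sided permutation test. With 2 libraries against 2 that is the smallest p the design can give. Adjusted over the 6 comparisons between libraries, this p was 0.4, so no such comparison can pass a threshold. After the mitochondrial level was subtracted in each library, the levels were 1.56% and 1.52% in iKO and 2.01% and 1.93% in control. The cores were lower in iKO on each of the 19 autosomes, with groups apart on all 19 and differences between -0.526 and -0.134 points.

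The rest of the genome was also less methylated in iKO. All other windows with enough reads stood at 67.1% and 64.8% in iKO and at 72.3% and 75.9% in control, a change of -11% relative to control. The log2 ratio of the core level to the level of the other windows was -5.17 and -5.18 in iKO and -4.99 and -5.12 in control. The ratio was lower in iKO by 0.12 on the log2 scale (pooled SD 0.063, exact permutation p = 0.33). Against the other windows with 40 or more CpGs the difference was -0.05, and with the mitochondrial level subtracted it was -0.18. Leaving out Control 1 brought the difference from all other windows to -0.06, and leaving out Control 2 to -0.18, so its size depended on which control library was used. Against broad valleys, a comparison added after the data were seen, the ratio differed by -0.21 (pooled SD 0.065). Valley windows themselves read 1.41% and 1.43% in iKO and 1.58% and 1.42% in control, and these groups overlapped. The more methylated CpG-dense windows read 29.3% and 27.6% in iKO against 33.2% and 33.5% in control, a change of -14.6%.

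**Figure D1:**
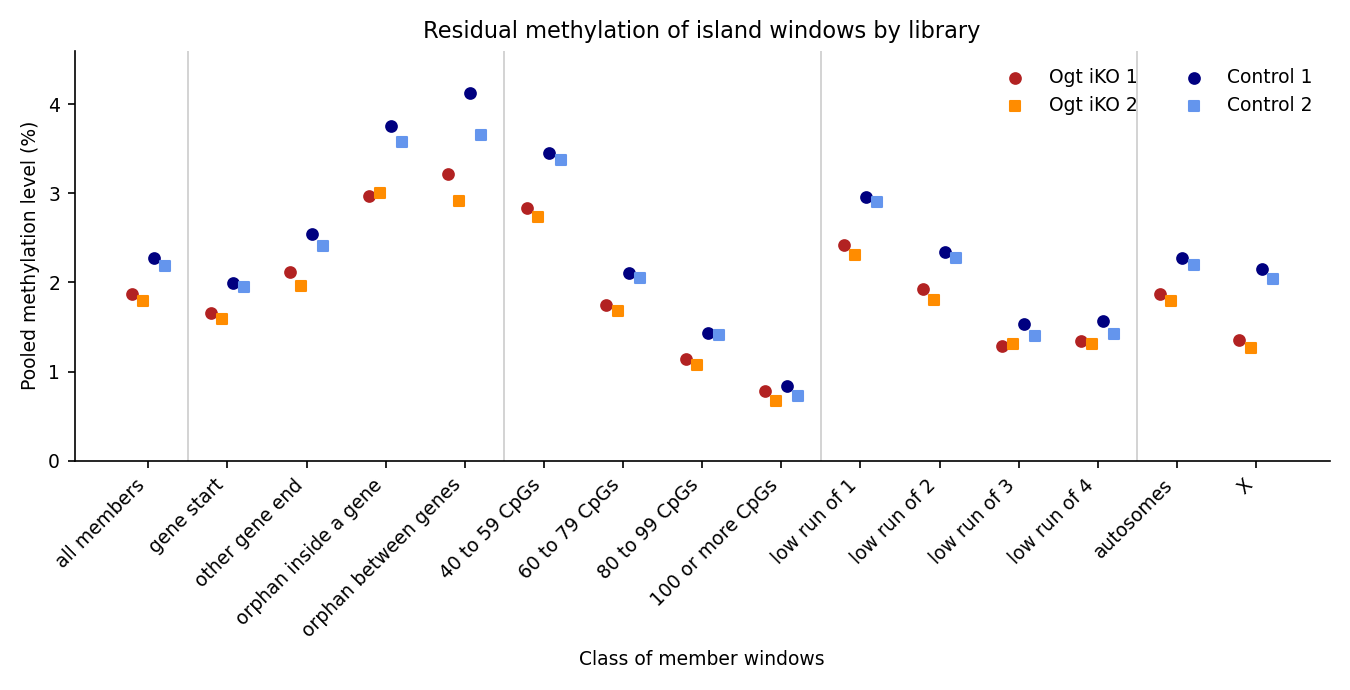
Pooled methylation level (%, y axis) of island core windows in each of the 4 libraries, for all cores and for classes by gene position, CpG number, length of the low run and chromosome. Each point is 1 library. Ogt iKO libraries (1.87% and 1.79% over all cores) lie below control libraries (2.27% and 2.19%) in every class except windows with 100 or more CpGs, where the groups overlap.

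The residual signal was uneven. The mean level of a window had a median of 1.31%, with quartiles at 0.461% and 3.50%. No methylated read was found in any library in 698 windows (4.55%), and 6655 windows (43.4%) had a mean under 1%. At the other end 2409 windows (15.7%) had a mean of 5% or more, and 2650 windows (17.3%) held 50% of all methylated reads. Pooled over all cores, the signal was also uneven between CpGs. These pooled values include the unevenness between windows, and the spread within single windows was not tested. With few reads on a CpG, a low level alone also leaves many CpGs without a methylated read. Of 389992 CpGs with 10 or more reads summed over libraries, 83.1% had no methylated read, and 13953 CpGs (3.58%) at 20% or more held 52.1% of the methylated reads. The share of cores at 5% or more was 13.9% and 13% in iKO and 18.3% and 17.7% in control. At 10% or more it was 2.65% and 2.85% in iKO and 5.13% and 4.89% in control. In both shares the iKO libraries lay below the controls, and so they did after thinning every library to the shallowest one.

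The 5 windows with the most reads among those without a methylated read lay in or near gene starts. Reads were summed over CpGs, so windows with many CpGs gather more of them. They held the starts of Med13l, of Ran, the GTPase of nuclear transport, and of Strbp, an RNA-binding protein, and the paired starts of Lias, which makes lipoic acid, and Rpl9, a ribosomal protein. The fifth window lay in Cebpb, a transcription factor whose start was outside it but within 1000 bp. For Med13l, at chr5:118560001-118561000, 0 of 1301 reads over the 4 libraries allows a level of up to 0.231%, and for Ran, at chr5:129020001-129021000, 0 of 1276 reads allows up to 0.235%. Just under the limit of the rule lay Ifrd1, Plppr2 and Trappc8, with mean levels of 9.999%, 9.998% and 9.996%. Just above it lay Pyroxd1, Cys1 and a window between Gm3898 and Gm39322, at 10.002%, 10.005% and 10.007%.

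Window by window the groups differed little. The difference, iKO mean minus control mean, had a median of -0.166 points over the cores against -7.86 over all 1551101 windows tested. It was below 0 in 8438 cores (55.0%), above 0 in 6206 (40.4%) and 0 in 703. Both iKO libraries lay below both controls in 2924 cores (19%), against 41.5% of all windows tested. They lay above both controls in 1567 cores (10.2%), against 4.03% of all windows. With a difference of at least 5 points as well, 541 cores (3.53%) were lower and 163 (1.06%) were higher. All windows tested gave 40.1% and 3.37% by the same rule. At 10 points or more the cores gave 73 lower and 13 higher, against 32.6% and 1.88% of all windows. A core has little methylation to lose, and the limit on its mean level also bounds both counts.

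**Figure D2:**
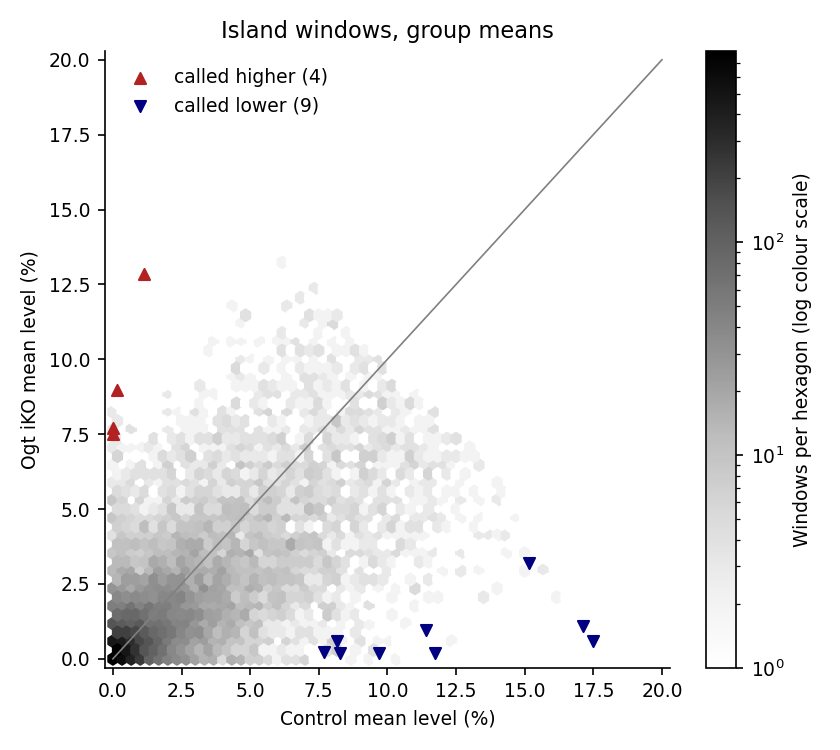
Mean level of each island core in the 2 control libraries (x axis, %) and in the 2 Ogt iKO libraries (y axis, %), as a hexagon density with a log colour scale. The diagonal marks equal means. Triangles mark the 4 windows called higher and the 9 called lower, and the upper right is empty because the rule kept the mean of both under 10%.

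A quasi-binomial model fitted to all 1551101 windows, with its dispersion moderated by limma and p-values adjusted by Benjamini-Hochberg over all of them, called few cores. At an adjusted p under 0.05 it called 9 cores lower in iKO, against 0.0814% of all windows, and 4 cores higher, against 0.000451% of all windows. The 9 and the 4 are 0.0586% and 0.0261% of the cores, so losses were called at a share near that of all windows. At an unadjusted p under 0.05 it found 972 cores lower (6.33%), against 13.6% of all windows, and 469 higher (3.06%), against 0.282% of all windows. By this model the share of cores was thus below that of all windows for losses and above it for gains. The median difference was -7.86 points over all windows tested and -0.166 over cores, so these shares start from unlike shifts. Both counts depended on the shared dispersion, and without moderation 36 cores were lower and 7 higher. With groups apart and 5 points or more, gains were instead 1.06% of cores against 3.37% of all windows. Of the 7 windows called higher anywhere, 4 were island cores. The others lay near Gm16701 (54 CpGs, mean level 12.7%), at Mcts2 (44 CpGs, 11.3%) and at the end of Arl9 (34 CpGs, 59.3%). The windows near Gm16701 and at Mcts2 were thus CpG-dense and just above the limit of the rule. No core was called by edgeR, which was run on windows with 40 or more CpGs only (509 lower and 253 higher at an unadjusted p under 0.05) or by limma on logit levels of all windows (1380 lower and 670 higher). The model limited to those CpG-dense windows also called none (217 lower and 50 higher at an unadjusted p under 0.05). No core was called when any 1 library was left out, with 364 to 765 lower and 146 to 383 higher at an unadjusted p under 0.05. Those fits leave 1 library in an arm, so the smaller design itself lowers what can be called, and they do not show that a call needs every library.

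**Figure D3:**
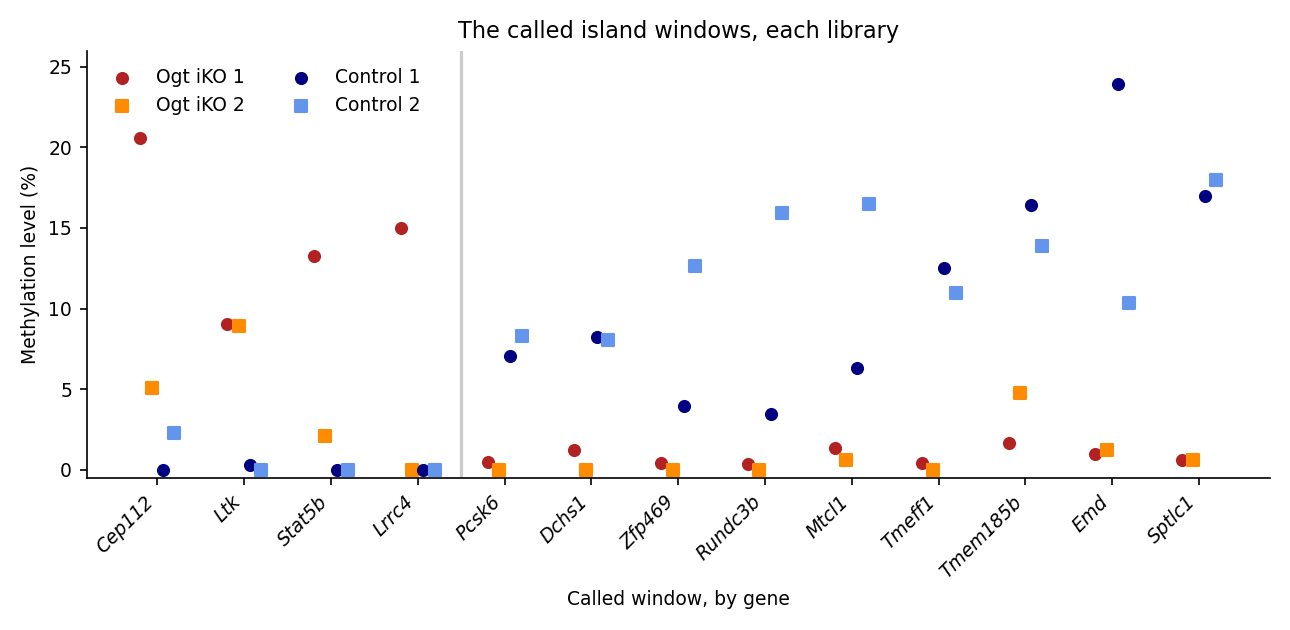
Methylation level (%, y axis) in each library of the 13 called island cores, named by gene, with the 4 called higher in Ogt iKO on the left of the grey line and the 9 called lower on the right. Each point is 1 library. Ltk and Sptlc1 have replicates close together in both groups, whereas Lrrc4 has methylated reads in 1 iKO library only.

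Sptlc1 showed the largest loss among cores with 60 or more reads in each library. Its window, chr13:53377001-53378000, holds the gene start and 60 CpGs, and read 0.617% and 0.599% in iKO against 17% and 17.9% in control (adjusted p = 0.0096, limma-moderated). The replicates of each group lay close together, and the 95% Wilson intervals of the iKO libraries ended at 3.41% and 3.31%, below the control intervals, which began at 11.9% and 12%. The methylated reads of the controls sat on 5 and 7 CpGs, with up to 7 and 5 reads on a single CpG. Few of them lay in the printed Sptlc1 promoter, where 0 of 71 and 1 of 34 reads were methylated in control. Tmem185b, at chr1:119526001-119527000, read 1.63% and 4.76% in iKO against 16.4% and 13.9% in control (adjusted p = 0.0408, limma-moderated). Its printed promoter, part of which lies before the window, had no methylated read in any library. In both genes nearly all of the methylated control reads of the window thus lay outside the printed bases. Both windows adjoined a more methylated one. The windows before and after Sptlc1 on the chromosome had mean levels of 13.6% and 51.1%, and those of Tmem185b 8.74% and 57.6%.

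The other called losses at gene starts were Tmeff1, Pcsk6, Rundc3b and Emd. Tmeff1, at chr4:48585001-48586000, read 0.422% and 0% in iKO against 12.5% and 11% in control (adjusted p = 0.0192, limma-moderated). Pcsk6, at chr7:65862001-65863000, read 0.447% and 0% in iKO against 7.06% and 8.30% in control (adjusted p = 0.0142, limma-moderated). In these windows no CpG had more than 1 methylated read in a control library, and the reads spanned 214 to 411 bp. Such a pattern can come from very few fragments per library, which was not tested. Rundc3b, at chr5:8622001-8623000, read 0.379% and 0% in iKO against 3.45% and 16.0% in control, so the control libraries lay far apart. Emd, which encodes emerin of the inner nuclear membrane, was named after its values were seen, because it had fewer than 60 reads in Control 2. Its window, chrX:74254001-74255000, read 0.962% and 1.20% in iKO against 23.9% and 10.3% in control, the latter from 29 reads.

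The remaining 3 called losses were orphan windows inside genes. Dchs1, a giant protocadherin of planar cell polarity, read 1.20% and 0% in iKO against 8.23% and 8.06% in control at chr7:105762001-105763000 (adjusted p = 0.0491, limma-moderated). Mtcl1, which crosslinks microtubules, read 1.33% and 0.568% against 6.29% and 16.5% at chr17:66364001-66365000. Zfp469, a zinc finger protein, read 0.397% and 0% against 3.92% and 12.6% at chr8:122230001-122231000. The groups did not overlap in any of the 3, and the controls lay close together in Dchs1 only. The adjusted p of the 13 called cores ranged over the alternatives from 0.0069 to 1.

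Gains were rarer and more uneven between replicates. Ltk was the only called gain with like values in both iKO libraries. Its window, chr2:119758001-119759000, with 112 CpGs, read 9.06% and 8.90% in iKO against 0.302% and 0% in control (adjusted p = 0.0188, limma-moderated). The 95% Wilson intervals were 6.42% to 12.6% and 5.63% to 13.8% in iKO, and 0.0534% to 1.69% in Control 1. The 0 of 97 reads in Control 2 allows up to 3.09%. The methylated reads sat on 30 and 17 CpGs with at most 1 per CpG. In the printed Ltk promoter 0 of 44 reads were methylated in iKO 1 and 1 of 16 in iKO 2, too few reads in iKO 2 to set it apart from the rest of the window.

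Stat5b, at chr11:100850001-100851000 with 124 CpGs, read 13.3% and 2.11% in iKO and 0% in both controls, whose 241 and 206 reads allow up to 1.24% and 1.46% (adjusted p = 0.0197, limma-moderated). In iKO 1 all 30 methylated reads fell in the printed promoter, where 30 of 65 reads were methylated. They sat on 30 CpGs within 238 bp, with 1 methylated read on each. The window near Lrrc4, a synaptic adhesion protein encoded inside Snd1, gave 15.0% in iKO 1 and 0% in the other 3 libraries, again with 1 methylated read on each of 33 CpGs within 274 bp. Cep112, a centrosomal protein, read 20.6% and 5.08% in iKO against 0% and 2.25% in control, with 33 CpGs methylated in iKO 1 and at most 2 reads on each. Lrrc4 and Cep112 were named after their values were seen, since iKO 2 had 39 and 59 reads there. Whether the signal of each of these 3 windows comes from 1 or a few fragments of a single library was not tested.

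The largest uncalled differences above control with groups apart and 60 or more reads in each library were at Pgam1, between Id2 and Gm17746, and at Pfkfb2, Gpr25, Tmem59l and Kcna2. The window near the start of Pgam1, a glycolytic enzyme, read 0.535% and 33.8% in iKO and 0% in both controls. The window between Id2, an inhibitor of bHLH factors, and Gm17746 read 0.704% and 25.8% in iKO and 0% in both controls. In these 2 windows iKO 2 alone held nearly all of the signal. Pgam1 had another, more read core, with 6.28% and 3.24% in iKO against 5.26% and 7.09% in control, groups that overlapped. At Gpr25, a G protein-coupled receptor, iKO 2 read 21.6% and the other 3 libraries between 0.877% and 3.02%. Pfkfb2, which sets the level of a glycolytic activator, read 14.0% and 17% in iKO against 3.60% and 3.55% in control. Tmem59l, a membrane protein, read 16.5% and 12.2% against 2.49% and 4.21%, and Kcna2, a voltage-gated potassium channel, 12.4% and 17.1% against 0% and 7.89%. Both iKO libraries carried these last 3 differences. At Pfkfb2 the methylated reads of iKO sat on 3 CpGs within 12 bp, with up to 6 and 7 methylated reads on a single CpG.

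Most cores lay at gene ends. A window was assigned to a gene end where a RefSeq gene started or ended in it or within 1000 bp, which held for 13797 cores, and 10859 of these had a listed start of transcription that near. The 1550 orphan cores (10.1%) split into 1158 inside a gene and 392 between genes. Orphans were more methylated than gene-end cores in every library. Gene-end cores read 1.75% and 1.67% in iKO and 2.11% and 2.04% in control, and orphans 3.03% and 2.98% in iKO and 3.84% and 3.59% in control. Both kinds were lower, with changes of -17.8% and -19.3% relative to control and groups apart in each. In points the gap between gene-end and orphan cores, -1.28 and -1.31 in iKO against -1.73 and -1.55 in control, was smaller in iKO by 0.348 (pooled SD 0.094, exact permutation p = 0.33).

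As a ratio the gap did not differ beyond the spread. The log2 ratio of orphan to gene-end level was 0.79 and 0.84 in iKO and 0.87 and 0.81 in control, groups that overlapped, with a difference of -0.03 (pooled SD 0.036, exact permutation p = 0.67). The difference in points also depended on how orphans and cores were defined. It was 0.126 when a gene end had to lie inside the window, 0.172 with protein-coding genes only, and 0.661 with a limit of 15% on the mean level. Orphans between genes read 3.22% and 2.92% in iKO against 4.12% and 3.66% in control, and orphans inside genes 2.97% and 3.0% against 3.76% and 3.57%. Orphans held a median of 56 CpGs and gene-end cores 64. Among windows of 60 to 79 CpGs, orphans still read 2.57% and 2.49% in iKO and 3.38% and 3.36% in control, against 1.66% and 1.60% and 1.99% and 1.93% at gene ends. Within CpG classes the change of the gap was 0.120 points at 40 to 59 CpGs and 0.263 at 80 to 99, with groups that overlapped (exact permutation p = 0.67 each). It was 0.510 at 60 to 79 CpGs and 0.396 at 100 or more, with groups apart (exact permutation p = 0.33 each).

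Single-window changes were more common among orphans by the same rule, a difference that was not tested. Orphans had higher control levels and fewer CpGs than gene-end cores, and a fixed limit in points does not allow for either. With groups apart and 5 points or more, 6.52% of orphans were lower and 2.19% higher, against 3.19% and 0.935% of gene-end cores. Of the called windows, 3 of 9 losses and 0 of 4 gains were orphans. Most of the orphans with the most CpGs were nearly free of methylation. The window between Gm31072 and Mir17, a microRNA that promotes growth, at chr14:115041001-115042000, had 174 CpGs and no methylated read in iKO 1, iKO 2 and Control 1, and read 1.09% in Control 2. Windows inside Tapt1 and Unc45b, a myosin chaperone, stayed under 1% in every library. Dact3, a regulator of Wnt signalling, read 3.69% and 10.4% in iKO against 2.86% and 2.56% in control. Tshz1, a zinc finger homeobox gene, read 16.5% in iKO 1 and between 0.469% and 1.27% in the other 3 libraries. Neither of these 2 was called. Tshz1 lies on chromosome 18, where the table of gene starts is incomplete, so an unlisted start near it could not be seen.

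The level was lower in windows with more CpGs in every library. Windows of 40 to 59 CpGs read 2.84% and 2.73% in iKO and 3.46% and 3.38% in control. Windows of 80 to 99 CpGs read 1.15% and 1.08% against 1.44% and 1.41%. The groups were apart in both classes, with changes of -18.5% and -22.0%. At 100 or more CpGs the levels were 0.780% and 0.671% in iKO and 0.834% and 0.721% in control, and the groups overlapped. The gap between windows of 40 to 59 CpGs and those of 80 or more was 2.30 and 2.28 points in control and 1.86 and 1.84 in iKO, a difference of -0.441 (pooled SD 0.011, exact permutation p = 0.33). As a log2 ratio it differed by -0.03 (pooled SD 0.048), with groups that overlapped.

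Windows that stood alone in the low run read more than those in longer runs. A run of 1 window read 2.41% and 2.31% in iKO and 2.96% and 2.91% in control, and a run of 3 read 1.29% and 1.3% against 1.54% and 1.40%. The groups were apart in runs of 1, 2, 3 and 4, with changes of -19.5%, -19.3%, -11.9% and -10.9%. The gap between cores with no other core beside them and those with one, 0.142 and 0.064 points in iKO and 0.117 and 0.251 in control, overlapped between groups (difference -0.081, pooled SD 0.078, exact permutation p = 0.67). The difference turned to 0.021 when windows in runs of 3 or more were left out. The groups were apart, each with p = 0.33 (exact permutation), at -0.133 with 30 or more CpGs and at -0.143 with a limit of 15% on the mean level.

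Cores on X were lower in iKO by more than autosomal ones when reads were pooled. The 389 X windows read 1.36% and 1.26% in iKO against 2.15% and 2.04% in control, and the 14958 autosomal windows 1.88% and 1.79% against 2.27% and 2.19%. The relative changes were -37.5% and -17.8%. The log2 ratio of X to autosomes was -0.47 and -0.51 in iKO and -0.08 and -0.11 in control, lower in iKO by 0.40 (pooled SD 0.025, exact permutation p = 0.33). The difference of single windows had a median of -0.198 points on X and -0.165 on autosomes. It was below 0 in 53.7% of X cores and 55.0% of autosomal ones. With groups apart and 5 points or more, 20 X windows (5.14%) were lower and 7 (1.80%) higher, against 3.48% and 1.04% of autosomal cores. Per library the 389 X windows held 26565 to 31234 reads and the 14958 autosomal windows about 2181180 to 2503870. An X window was thus read less, and a limit in points does not allow for that. The other windows of X changed by -10.9% relative to control, against -11% for other autosomal windows.

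Around gene starts both the residual methylation and the difference between groups lay mainly at the flanks. In zones chosen after the data were seen, around the starts that lay inside 7959 cores, the 300 bases from -100 to 199 read 0.662% and 0.609% in iKO and 0.681% and 0.641% in control. The groups overlapped there (exact permutation p = 0.67). The mitochondrial level, 0.307% and 0.263% in iKO and 0.264% and 0.253% in control, was not subtracted in these zones. From -500 to -201, upstream, the level was 2.83% and 2.71% in iKO and 3.80% and 3.81% in control, a change of -27.2%. From 200 to 499, downstream, it was 1.10% and 1.02% against 1.21% and 1.16%, a change of -10.6%. The log2 ratio of the upstream to the downstream flank was lower in iKO by 0.30 (pooled SD 0.038, exact permutation p = 0.33). With only CpGs inside the cores it was lower by 0.29 (pooled SD 0.052).

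**Figure D4:**
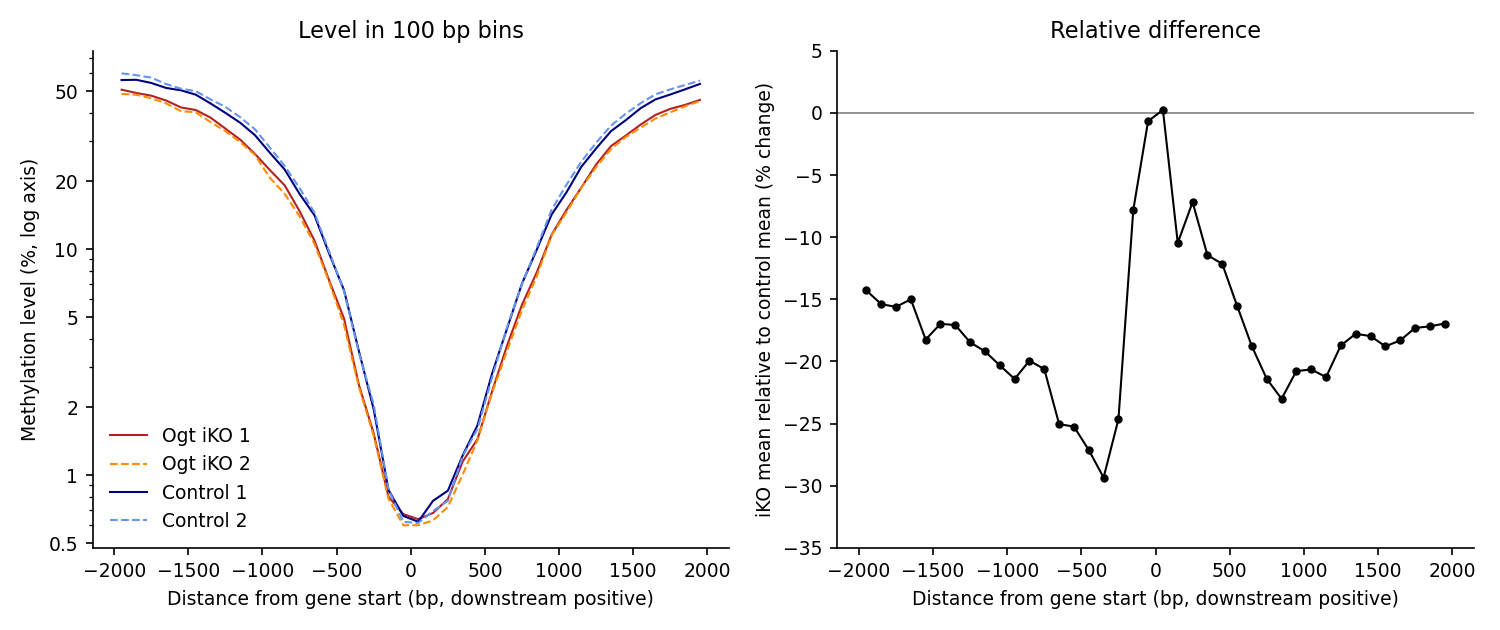
Left, pooled methylation level (%, log axis) in 100 bp bins by distance from the gene start (bp, downstream positive) for starts inside island cores, 1 line per library. Right, the iKO mean relative to the control mean (% change) in the same bins. The lines meet within about 100 bp of the start and part on both sides, with the lowest relative values upstream, where the zone from -500 to -201 changed by -27.2%.

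Further out the sides were more alike: -800 to -501 read 10.7% and 10.3% against 13.5% and 14.0%, and 500 to 799 read 3.79% and 3.62% against 4.59% and 4.56%, changes of -23.4% and -19%. In 415 cores that stood alone between neighbours at 50% or more, the first 100 bp read 10.4% and 8.93% in iKO against 14.2% and 16.1% in control, and the last 100 bp 12.6% and 12.1% against 17% and 16.8%. In the bin from 500 to 599 bp of these windows the levels were 1.18% and 1.47% against 1.95% and 1.69%. In these isolated islands the groups were apart at the edges and in that central bin.

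Genes of known function in this system were described from lists, as counts and medians. None of the 14 lists held a called window. By unadjusted p under 0.05 all cores gave 6.33% lower and 3.06% higher, and each list held between 0 and 4 windows in either direction. The largest shares, both above those of all cores, were in DNA repair, with 4 of 21 windows lower (19%) and 3 higher (14.3%). Cell cycle regulators had 3 of 24 windows lower (12.5%) and 0 higher, and glycolysis 1 of 17 lower (5.88%) and 2 higher (11.8%). A gene was matched to cores within 1000 bp of its listed starts, or of its ends where no start was listed. For a gene with several cores, the values are those of the most read one unless another window is named. Of 14 genes of the TET, DNMT and partner list, 12 had a core, with a median difference of 0 over 17 windows. Pooled, these windows read 1.09% and 1.17% in iKO against 1.51% and 0.727% in control, and the groups overlapped. Without the most read Dnmt3a window, a step added after the data were seen, iKO lay above control, at 1.19% and 1.20% against 0.936% and 0.808%. Tet2, Tet3 and Dnmt1 are given for their role, outside the rule of most reads and with their values seen. Tet2, a dioxygenase that oxidises 5-methylcytosine, read 0% and 0% in iKO against 0.405% and 0.595% in control, and Tet3 0.541% and 2.06% against 3.08% and 2.25%. Dnmt1, the maintenance methyltransferase, stayed between 0% and 1.41% in all libraries. Dnmt3a, a de novo methyltransferase, read 9.94% in Control 1 and at most 0.980% in the other 3 libraries (adjusted p = 0.263, limma-moderated). Mbd3, a subunit of the NuRD complex, stayed under 1% in every library.

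Of 12 genes of the list of OGT partners and O-GlcNAc enzymes 10 had a core, with a median difference of 0.0035 points over 14 windows. Pooled over these windows the levels were 1.19% and 0.545% in iKO and 0.514% and 0.306% in control, so both iKO libraries were above the controls although the median was near 0. That order ended without the Gfpt1 window, which held 20 of the 31 methylated reads of iKO 1 (0.458% and 0.538% against 0.491% and 0.327%), and also without any one of 4 other windows. Ogt and Oga are likewise given for their role and with their values seen. The Ogt window itself, chrX:101640001-101641000, read 0% in both iKO libraries and in Control 2, and 2.60% in Control 1. Oga, which removes the sugar, had no methylated read in any library in the more read of its 2 windows. Its other window held 3 and 3 methylated reads in iKO and 2 and 2 in control. Asxl1 and Asxl2, subunits of the BAP1 deubiquitinase complex, read at most 1.46% and 0.813%. Gfpt1, the first enzyme of the hexosamine pathway and named after its values were seen, read 9.90% in iKO 1 and at most 0.971% elsewhere (adjusted p = 0.227, limma-moderated). Of 13 genes of CXXC proteins and partners 11 had a core, with a median difference of 0. Kdm2a and Kdm2b, histone demethylases with a CXXC domain, read at most 1.99% and 0.781% in their most read windows. The less read Kdm2a window held 10 and 2 methylated reads in iKO and 10 and 9 in control. Of 16 Polycomb genes 13 had a core, and their median difference was 0.0047 points over 22 windows, with pooled levels of 1.56% and 1.52% in iKO against 2.02% and 1.70% in control. Without the less read Phf19 window the Polycomb groups overlapped, at 1.35% and 1.59% against 1.66% and 1.58%. Aebp2 and Rbbp4, subunits of PRC2, read at most 1.25% and 4.52%.

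Among housekeeping groups all 31 proteasome genes had a core. Their 38 windows had a median difference of -0.285 points, with 25 lower and 13 higher, against a median of -0.166 over all cores. Psma7 and Psmd8, the proteasome genes with the most reads, stayed under 1% in every library. The list also held opposite single windows. Psma4 read 1.83% and 2.52% in iKO against 8.49% and 9.30% in control, and Psmc4 12.6% and 14.2% against 6.25% and 3.37%. Neither was called, and both were named after their values were seen. Pooled, proteasome windows read 1.96% and 1.84% in iKO against 1.75% and 2.45% in control, and the groups overlapped. Without the Psmc4 window iKO lay below control, at 1.53% and 1.47% against 1.66% and 2.42%. For mitochondrial ribosomal proteins 22 of 30 genes had a core (median difference -0.269), for MCM and licensing factors 18 of 20 (-0.114), and for core spliceosome proteins 18 of 24 (-0.005). For RNA polymerase II subunits it was 9 of 12 genes (0), for glycolysis 12 of 14 (0), for DNA repair 17 of 20 (-0.230) and for cell cycle regulators 17 of 23 (-0.042). Pooled levels could differ between groups where these medians were near 0. Glycolysis windows read 2.96% and 2.89% in iKO against 1.20% and 2.39% in control, and cell cycle windows 1.46% and 0.666% against 2.19% and 2.18%. Spliceosome windows read 1.03% and 0.846% against 1.66% and 1.26%. The groups were apart in these 3 lists, but for glycolysis and the spliceosome this rested on 1 window each. Without the less read Pgam1 window glycolysis read 3.16% and 1.79% in iKO against 1.26% and 2.61% in control, and the groups overlapped. In that window iKO 2 held 26 methylated reads and the other libraries 0 or 1. Without the less read Sf3a2 window the spliceosome groups overlapped at 1.04% and 0.845% against 1.30% and 0.987%. That window held 16 and 12 methylated reads in control and 1 in each iKO library. For cell cycle windows the groups stayed apart without any one window. These values were computed after the data were seen.

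In these groups too the genes with the most reads were close to 0 in their most read window. Windows with many CpGs gather more reads, and their level was lower in every library. Polr2b and Polr2l, subunits of RNA polymerase II, Gapdh, the glycolytic dehydrogenase, U2af1, which reads the 3′ splice site, Lig3, a DNA ligase, Orc6, of the origin recognition complex, and Rb1, the retinoblastoma protein, each stayed under 1% in every library. Ccne1, cyclin E1, had no methylated read in any library. Pfkm, a phosphofructokinase, and Atm, a DNA damage kinase, read at most 1.35% and 1.25%. Single libraries stood out at Mrps6, a mitochondrial ribosomal protein, with 4.48% in Control 1, at Sf3a2, of the U2 snRNP, with 3.89% in iKO 2, and at Mrpl18 with 2.16% in iKO 1. Gins2, of the replicative helicase, read 2.35% and 0.450% in iKO against 0% and 1.70% in control.

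Few genes known to carry methylated promoters had a core, and the limit of 10% on the mean level kept methylated windows out by rule. Of the 15 imprinted genes listed, 13 were in the reference table and 3 of these had one. Grb10 and Igf2r, growth regulators, read at most 0.659% and 1.31%. Inpp5f, an inositol phosphatase, read 4.95% and 10% in iKO against 5.02% and 13% in control, with groups that overlapped. Of 14 germline genes that somatic cells methylate only 2 had one. Dazl, an RNA-binding protein of germ cells, read 0% and 1.25% in iKO against 10% and 2.91% in control, and Stag3, a meiotic cohesin subunit, 5.33% and 9.09% against 7.61% and 11.9%. The Dazl window held 0 and 1 methylated reads in iKO and 1 and 3 in control, so the 10% of Control 1 is 1 methylated read. The Dazl groups were apart, by these few reads, and the Stag3 groups overlapped. Neither window was called.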

How the data were processed

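Whole-genome bisulfite sequencing covered 2 Ogt iKO and 2 control libraries of mouse embryonic stem cells. Per the file headers, the authors deposited for each CpG the methylated read count (C_count), the total count of C or T reads (CT_count) and an expected count corrected for C-to-T variants (eff_CT_count). The submitters' processing notes name BSMAP, Picard and mm10, while versions and filters are not given in the sources used here. Files were matched to samples by the group and number in their names (KO for iKO, WT for Control). Values of both strands were used as deposited, and lambda reads were not analysed here.

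CpGs were summed in 1 kb windows of mm10, and a level is methylated over total reads. Windows with at least 5 listed CpGs and 10 reads in each library were tested with a quasi-binomial model of group only, its dispersion moderated across windows with limma 3.58.1 (R 4.3.3) and kept at 1 or more, and p-values were adjusted by Benjamini-Hochberg. Alternatives were edgeR 4.0.16 on windows with 40 or more CpGs and limma applied to logits, with 0.5 added to each count. The model was tested on simulated data. Values per library were compared by exact two-sided permutation over 6 arrangements. Gene ends, gene starts and promoters came from RefSeq tables of GRCm38.p6, the assembly of mm10, matched by position. The start table is incomplete, on chromosome 18 (355 gene-end cores) and in stretches of other chromosomes. Cores at an end without a listed start, and orphans inside genes, can therefore hold gene starts. Deviations of same-numbered samples showed no pairing (correlation 0.0025 over cores). Counting error in single windows could hide one, so a pairing is not excluded.

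Named windows are, each way, the 8 with the largest difference among those with groups apart and 60 or more reads in each library, called ones first, the 5 most read without methylated reads, the 3 nearest each side of the limit, the 5 orphans of most CpGs, and the 1 or 2 most read genes of each list; others are marked where named. Members and lists were chosen with earlier results of these data known.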

Additional observations from a re-analysis of the deposited data

How the results depend on the processing

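All differences between libraries but 1 kept their direction under every alternative tried (14 to 18 each). The residual level difference ran from -0.543 to -0.232 points, the log2 ratio from -0.21 (against broad valleys, added after the data were seen) to -0.05 (against other CpG-dense windows), the gene-end to orphan gap from 0.126 to 0.661, the CpG number gap from -0.667 to -0.241 and the X to autosome gap from -0.613 to -0.211. The gap between single and grouped cores ran from -0.148 to 0.021, with groups apart at -0.133 (30 or more CpGs), -0.143 (mean level under 15%) and -0.105 (no exclusion of runs), and reversed to 0.021 without runs of 3 or more windows. With at least 60 CpGs the CpG number gap could not be computed. Leaving out 1 library gave -0.444 to -0.360 for the residual difference, -0.18 to -0.06 for the log2 ratio, 0.255 to 0.440 for the orphan gap and -0.148 to -0.014 for single against grouped cores. The called windows were less stable than these sums. The 9 losses became 3 with thinned reads, 16 without a CpG minimum (all 9 among them) and 5 at 10 points or more. The 4 gains became 2 with thinned reads, 6 without a CpG minimum (all 4 among them) and 1 at 10 points or more. Both counts were 0 in each fit without 1 library (0 to 0), where the arm of 1 library borrows its spread from the other arm, with only CpG-dense windows tested (217 lower and 50 higher at an unadjusted p under 0.05), by edgeR on those same CpG-dense windows, without moderation (36 and 7) and by limma on logit levels.

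With the replicate number as a block, the model called 0 losses and 0 gains (761 and 366 at an unadjusted p under 0.05), with fewer residual degrees of freedom. The replicate block leaves a mean of same-numbered differences unchanged, so the 6 differences stayed at -0.402, -0.12, 0.348, -0.441, -0.081 and -0.387. Deviations of same-numbered samples had a correlation of 0.0025 over cores and -0.0075 over all windows tested, which showed no pairing. With counting error in each window these values cannot exclude one.

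Depth limits single windows: at the median of 142 reads, shared by neighbouring CpGs of the same fragments, 48.9% of cores had at most 1 methylated read at any CpG in any library.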
